A study of Mus musculus with 16 samples.

Results

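The genes of the semaphorin, plexin, ephrin, Eph, Slit and Robo families were followed in endothelial cells (ECs, the lining of blood vessels) of mouse lung. A rule on names that uses no measured value picked them, and it was set with earlier results of these data known. It took every protein-coding gene of the deposited table whose symbol begins with Sema, Plxn, Epha, Ephb, Efna, Efnb, Robo or Slit. A digit, or a letter and a digit, had to follow. Sema3d, Sema3g, Efnb2 and Ephb4 were left out of the set and are given only among the related genes near the end. The rule took 54 of 43346 genes: 18 semaphorins, 9 plexins, 13 Eph receptors, 7 ephrins and 7 Slit or Robo genes.

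The RNA-seq libraries came from sorted lung ECs of mice of either age, 1 mouse per library and 16 libraries in all. The study asked how lung ECs of young and aged mice respond to an injury that leads to fibrosis. All mice were of the FVB strain, and by the study's methods they were females and males that carried a transgene in which the collagen gene Col1a1 drives GFP. Young Sham (n = 5) held mice of 2 months and Aged Sham (n = 3) mice of 18 months, given saline into the airway without injury. Young Bleo (n = 4) and Aged Bleo (n = 4) held mice of the same ages given bleomycin, a drug that injures the lung, and their lungs were taken about a month later. Cells were kept if they carried CD31, an endothelial surface protein, and lacked CD45, EpCAM and GFP, a gate set against leukocytes, epithelium and collagen-producing cells. The methods do not tie libraries to litters or sort days, so p-values measure the spread between these 16 libraries. The title numbers of the libraries are used below to name them, and values within a group are listed in the order of those numbers: 21, 22, 23, 24 and 25 in Young Sham, 17, 18, 19 and 20 in Young Bleo, 13, 14 and 15 in Aged Sham, and 1, 2, 3 and 5 in Aged Bleo.

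Semaphorins, ephrins and Slits are cues that steer growing axons and growing vessels by attraction or repulsion. Semaphorins are secreted or membrane-bound ligands of plexins, and most secreted semaphorins also need a neuropilin as co-receptor. Ephrins are tethered to the cell surface and bind Eph receptor tyrosine kinases on neighbouring cells, with signals passing into both cells. Slits are secreted ligands of Robo receptors, of which Robo4 is known chiefly from endothelium.

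Total counts per library ranged from 20907113 to 71035301, and replicate pairs had Spearman correlations of 0.95 to 0.981 across genes. The summed level of 6 endothelial marker genes ranged over 1940 to 2090 FPKM in Young Sham and 1600 to 1780 FPKM in Aged Sham, against 987 to 1520 FPKM in Young Bleo and 938 to 1560 FPKM in Aged Bleo. FPKM is the count scaled by gene length and library size. The libraries thus carried the endothelial label's markers throughout. Markers of aerocytes, the capillary cells specialised for gas exchange, differed widely between injured libraries and summed to 192, 261, 375 and 877 FPKM in Young Bleo and to 179, 318, 1190 and 924 FPKM in Aged Bleo, against 1410 to 1900 FPKM in Young Sham and 1080 to 1710 FPKM in Aged Sham. The 6 macrophage markers measured summed to 22.4 to 39.2 FPKM in Young Sham, 146 to 420 FPKM in Young Bleo, 49.4 to 160 FPKM in Aged Sham and 188 to 1330 FPKM in Aged Bleo. Mesothelial markers were low throughout and lowest in Young Sham (0.00405 to 1.18 FPKM in sum), with 4.96 to 15.3 FPKM in Young Bleo, 2.72 to 12.4 FPKM in Aged Sham and 0.506 to 5.50 FPKM in Aged Bleo. Against Young Sham, 4 of the 4 were called higher in Young Bleo, and 3 in each aged group. Platelet markers summed to 885, 3160 and 581 FPKM in Aged Sham, the highest in library 14, against 255 to 483 FPKM in Young Sham. Epithelial markers, mostly Sftpc, summed to 51.5 to 388 FPKM over all libraries, so signal of cell types outside the gate was present. In bulk samples, fewer cells of a type and less RNA per cell cannot be told apart.

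Per gene length, a few members of each family carried most of its signal. Mean FPKM over the 16 libraries was at least 10 in 7 genes, 1 to under 10 in 11, 0.1 to under 1 in 15 and under 0.1 in 21. Among the ligands, the secreted semaphorin Sema3f had the highest level of the whole set, with a mean of 74.3 FPKM, and it made up 37.8% to 67.7% of the summed semaphorin FPKM of a library. Sema3c, another secreted semaphorin known from cardiovascular development, followed at 36.9 FPKM, and Sema7a, which is anchored in the membrane by a lipid, at 11.7 FPKM. The ephrin Efna1, a ligand of Epha2, averaged 53.0 FPKM, Efnb1 25.1 FPKM and Efna2 0.439 FPKM. Among the receptors, Robo4 averaged 21.3 FPKM and made up 96.5% to 98.6% of the Slit and Robo sum, while its candidate ligands Slit3 and Slit2 averaged 0.455 and 0.0307 FPKM. Plxna1 averaged 13.1 FPKM, Plxnd1, the plexin best known from vessels, 5.46 FPKM, and Plxna4 2.55 FPKM. The Eph receptors were lower, led by Epha2 at 3.40 FPKM, Epha4 at 1.53 FPKM and Ephb1 at 0.466 FPKM. The receptor Epha8 and the ligand Slit1, both known from the nervous system, had 0 counts in all 16 libraries.

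**Figure D1:**
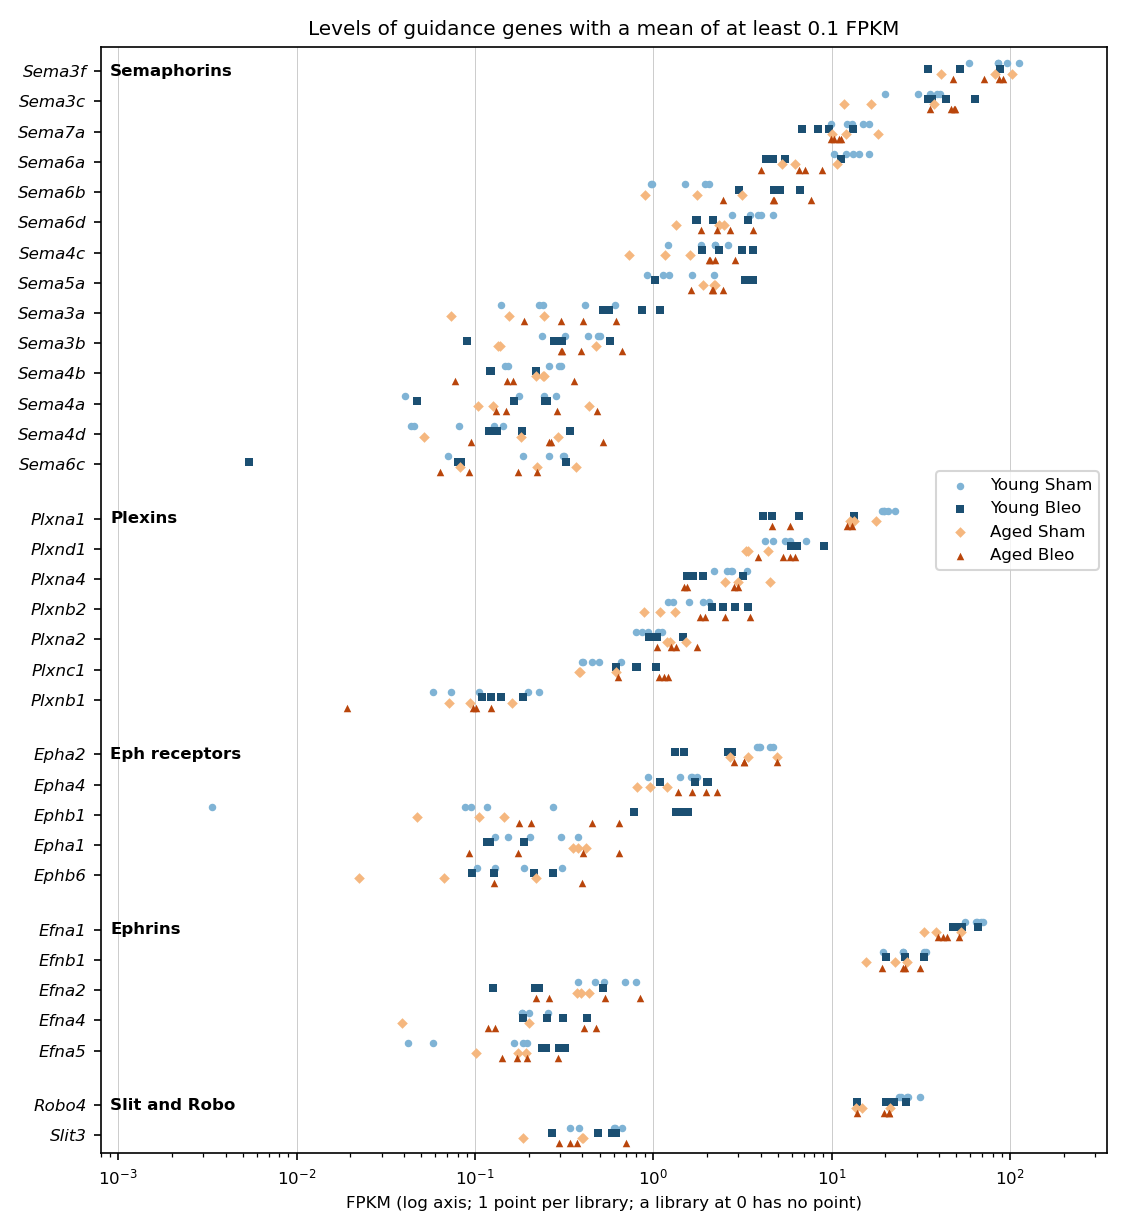
Level of each guidance gene with a mean of at least 0.1 FPKM, by family, in FPKM on a log axis, with 1 point per library coloured by group. Sema3f and Efna1 lie at the right end, each Slit and Robo gene other than Robo4 lies under 1 FPKM in every library, and the Ephb1 points of Young Bleo stand to the right of those of the other groups.

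The leading ligand and the leading Robo differed in how far their groups overlapped. Sema3f had 85.7, 113, 95.6, 59.2 and 85.3 FPKM in Young Sham, 52.8, 52.2, 34.8 and 88.0 in Young Bleo, 40.8, 82.0 and 102 in Aged Sham, and 71.4, 47.9, 91.2 and 87.1 in Aged Bleo. The groups overlapped, and no contrast of Sema3f passed the test. Robo4 had 26.3, 31.5, 26.8, 23.9 and 24.6 FPKM in Young Sham, 20.2, 22.4, 13.9 and 26.2 in Young Bleo, 13.7, 14.9 and 21.2 in Aged Sham, and 21.1, 13.9, 21.0 and 19.7 in Aged Bleo. All 5 Young Sham libraries of Robo4 were above all Aged Sham and all Aged Bleo libraries. Neighbours in the order of means overlapped between libraries: Efna1 ranged from 32.8 to 70.3 FPKM, inside the range that Sema3f and Sema3c spanned together.

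The promoter sequences of 4 genes called under bleomycin are shown as examples. Sema6b and Plxnc1 were called higher in both ages, and in young mice Ephb1 was called higher and Epha2 lower. None of the 4 was called for the difference of the responses between ages. Each is the 250 bases before a RefSeq start on GRCm38.p6 (mm10), 5′ to 3′ on the gene's strand: chr17:56140344-56140593 on the minus strand for Sema6b, chr10:94944846-94945095 on the minus strand for Plxnc1, chr9:102354694-102354943 on the minus strand for Ephb1 and chr4:141300971-141301220 on the plus strand for Epha2. Capitals mark the strings AGGAAG and CGGAAG on either strand, forms of the binding motif of ETS factors, the family of the endothelial factor ERG. Other forms of that motif were not searched and are not marked.
Sema6b: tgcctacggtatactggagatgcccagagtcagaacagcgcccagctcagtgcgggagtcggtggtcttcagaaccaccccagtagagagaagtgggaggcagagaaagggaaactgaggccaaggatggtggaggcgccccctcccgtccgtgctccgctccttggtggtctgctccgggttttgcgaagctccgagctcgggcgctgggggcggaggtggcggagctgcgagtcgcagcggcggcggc
Plxnc1: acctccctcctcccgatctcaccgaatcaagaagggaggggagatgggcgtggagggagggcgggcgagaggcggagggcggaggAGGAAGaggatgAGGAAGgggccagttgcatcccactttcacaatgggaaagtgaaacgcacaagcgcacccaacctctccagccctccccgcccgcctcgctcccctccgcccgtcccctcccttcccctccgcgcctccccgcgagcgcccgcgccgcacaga
Ephb1: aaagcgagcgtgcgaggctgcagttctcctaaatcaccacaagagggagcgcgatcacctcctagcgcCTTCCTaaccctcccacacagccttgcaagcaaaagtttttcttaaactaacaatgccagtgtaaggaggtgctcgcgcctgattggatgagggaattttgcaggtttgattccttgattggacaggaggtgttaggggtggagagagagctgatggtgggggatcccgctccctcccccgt
Epha2: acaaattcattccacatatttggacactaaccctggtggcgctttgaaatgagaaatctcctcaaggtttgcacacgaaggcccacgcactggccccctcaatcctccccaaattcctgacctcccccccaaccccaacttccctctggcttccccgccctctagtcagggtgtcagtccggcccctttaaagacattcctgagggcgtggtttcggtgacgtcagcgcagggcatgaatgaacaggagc
Plxnc1 held 2 matches, Ephb1 held 1 on the opposite strand, and Sema6b and Epha2 held none in these windows. Sema6b has another RefSeq start, 6491 bases from the deposited gene start, whose window (chr17:56133853-56134102) held 3. Of the 54 genes, 47 had at least 1 window, and 28 of their 63 windows (44.4%) held a match, against 39.2% of 32851 windows of the same length over 27025 genes. Among the 15 called genes, 13 had a window, and 40.0% of their 20 windows held a match. The median GC content of the 63 windows was 64.0%, against 52.4% over all windows, and the median number of CG dinucleotides was 15, against 6. A match is a run of letters and does not show binding.

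Each gene was tested with DESeq2 in 6 contrasts and was called where the adjusted p did not exceed 0.05 and the log2 fold change was 0.5 or more in either direction. Of the 54 genes, 48 received an adjusted p in every contrast, Efnb3 received it in 1, and Epha5, Epha6, Epha8, Epha10 and Slit1 in none. In all, 15 genes were called in at least 1 contrast, namely 7 semaphorins, 5 plexins, 2 Eph receptors and 1 ephrin, and no Slit or Robo gene was called. Those are 30.6% of the 49 with an adjusted p in any contrast, against 19.8% of 19440 genes. For Young Bleo against Young Sham, 6 of 48 genes rose and 4 fell, while 7.57% of all genes tested rose and 6.35% fell. For Aged Bleo against Aged Sham, 5 of 48 rose and 0 fell, against 3.39% and 2.44% of all genes. Between Aged Bleo and Young Sham 5 rose and 3 fell, against 6.58% and 3.14% of all genes, and this contrast shares its controls with the first and the next. For Aged Sham against Young Sham, 0 rose and 2 fell, against 2.24% and 1.11% of all genes. Between the bleomycin groups 0 of 48 were called, against 1.03% of all genes, and for the difference of the bleomycin responses between ages 0 of 49 were called, against 0.381%.

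With edgeR's quasi-likelihood test the counts were lower. It called 8 genes for Young Bleo against Young Sham (9.78% of all genes tested by edgeR), 5 for Aged Bleo against Young Sham (5.69%), 0 for Aged Bleo against Aged Sham (0.797%), 0 for Aged Sham against Young Sham (0.862%), 0 for Aged Bleo against Young Bleo (0.0437%) and 0 for the difference of the responses (0.00546%). At an unadjusted DESeq2 p under 0.05 there were 18 genes for Young Bleo against Young Sham (26.9% of all genes tested), 16 for Aged Bleo against Aged Sham (19.0%), 13 for Aged Bleo against Young Sham (22.6%) and 12 for Aged Sham against Young Sham (14.5%). There were 5 for Aged Bleo against Young Bleo (10.6%) and 5 for the difference (8.1%). Over the 48 genes with an adjusted p, the median log2 fold change was -0.11 for Young Bleo against Young Sham, 0.13 for Aged Bleo against Aged Sham and -0.37 for Aged Sham against Young Sham, beside 0.01, 0.006 and 0.02 over all genes. These values describe the genes tested, and the account below is of single genes.

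**Figure D2:**
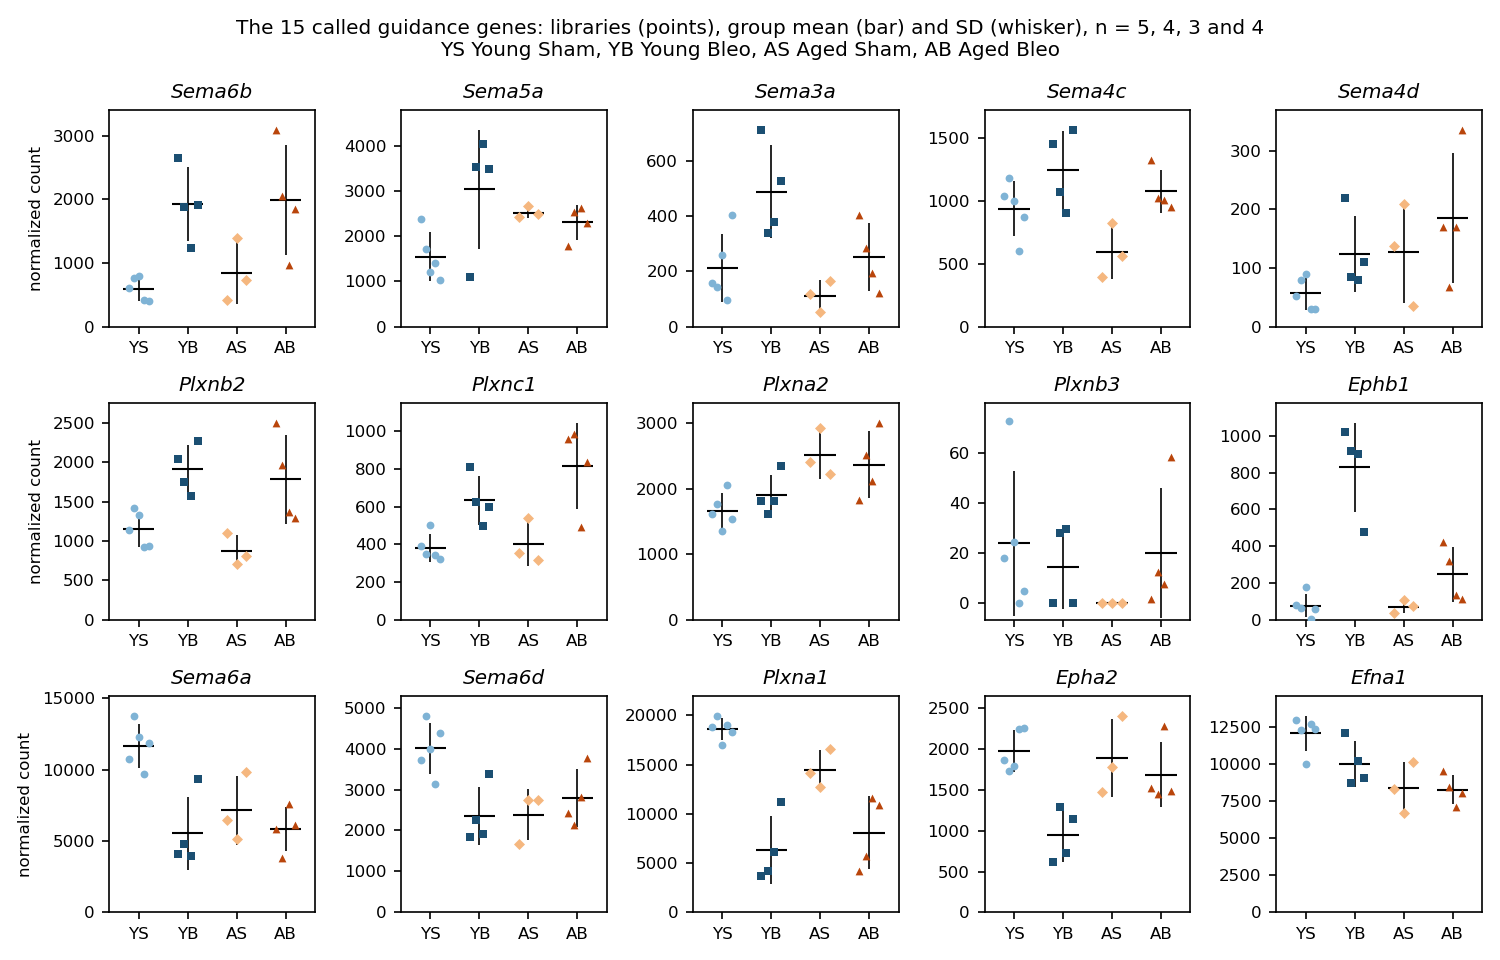
DESeq2-normalized counts of the 15 called genes in each library (points), with the group mean (bar) and SD (whisker) for the 5 Young Sham, 4 Young Bleo, 3 Aged Sham and 4 Aged Bleo libraries. Sema6b, Plxnb2 and Plxnc1 stand higher in both bleomycin groups, Plxna1 is lower in both, and Ephb1 is highest in Young Bleo.

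Among the semaphorin ligands, Sema6b was the one that rose in all 3 contrasts of a bleomycin group against a sham group. Sema6b, a transmembrane semaphorin that binds Plxna4, had 605, 756, 802, 418 and 399 normalized counts in Young Sham and 2656, 1885, 1242 and 1918 in Young Bleo. In aged mice it had 422, 1393 and 727 in Aged Sham and 3089, 2045, 969 and 1847 in Aged Bleo. The young groups did not overlap, whereas in the aged groups Aged Sham 14 lay above Aged Bleo 3. The log2 fold change of Sema6b was 1.69 (SE 0.36, adjusted p = 0.00012) in young mice, 1.23 (SE 0.41, adjusted p = 0.049) in aged mice and 1.74 (SE 0.36, adjusted p = 1e-04) for Aged Bleo against Young Sham. The first and the last held in all 23 other settings, with adjusted p at most 0.0094 and 0.017. The rise within aged mice held in 8 of 23 settings, with adjusted p up to 0.26 and a log2 fold change of 0.91 to 1.79 when single libraries were left out. It was lost without any 1 of Young Sham 21, 22 or 23, Young Bleo 18 or 20, Aged Sham 13 or 15, and Aged Bleo 1, 2 or 5. Only 2 of the 7 settings other than leaving out a library kept it (edgeR adjusted p = 0.15). Between the bleomycin groups the log2 difference was 0.05, with a 95% interval of -0.70 to 0.80.

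Sema6a and Sema6d, transmembrane relatives of Sema6b that bind A-type plexins, moved the other way. Sema6a had 10720, 13773, 12282, 9713 and 11892 normalized counts in Young Sham and 4125, 4775, 3918 and 9318 in Young Bleo. In aged mice Sema6a had 6476, 5159 and 9817 in Aged Sham and 5822, 3844, 7613 and 6131 in Aged Bleo. All Young Bleo and all Aged Bleo libraries were below all Young Sham libraries, and the aged groups overlapped each other. Sema6a fell by 1.08 on the log2 scale (SE 0.27, adjusted p = 0.0014) in young mice and by 1.00 for Aged Bleo against Young Sham (SE 0.27, adjusted p = 0.0049), each in all 23 other settings. Within aged mice its log2 fold change was -0.29 (adjusted p = 0.69), and Aged Sham against Young Sham gave -0.71 (adjusted p = 0.20), which passed without Aged Sham 15 (-1.01, adjusted p = 0.045) or with only those groups in the fit (adjusted p = 0.034).

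Sema6d had 3710, 4801, 4000, 3147 and 4369 normalized counts in Young Sham and 1837, 2268, 1913 and 3382 in Young Bleo. It had 1661, 2756 and 2754 in Aged Sham and 2432, 2132, 2813 and 3768 in Aged Bleo. Young Bleo 20 lay within the range of Young Sham and the other 3 Young Bleo libraries lay below it. Sema6d fell by 0.77 on the log2 scale in young mice (SE 0.23, adjusted p = 0.0091), in 20 of 23 settings. The call was lost without Young Bleo 17, at -0.67, and without Young Bleo 19 (adjusted p at most 0.060 in all settings). Within aged mice the Sema6d log2 fold change was 0.22 (adjusted p = 0.74), and the difference between the responses was 0.99 (adjusted p = 0.27). Aged Sham against Young Sham gave -0.74 for Sema6d (adjusted p = 0.072), which passed with only those groups in the fit (adjusted p = 0.019) and without Young Sham 24, Young Bleo 20 or Aged Bleo 5. Leaving out Young Bleo 20 brought the difference between the responses to 1.22 for Sema6d (adjusted p = 0.020). For Sema6a that difference went from 0.79 (adjusted p = 0.63) to 1.16 (adjusted p = 0.044), so both rest on which libraries are kept.

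Sema5a, a transmembrane semaphorin with thrombospondin repeats, had 2384, 1723, 1197, 1417 and 1025 normalized counts in Young Sham and 1100, 3532, 4033 and 3476 in Young Bleo. It had 2416, 2666 and 2486 in Aged Sham and 1778, 2530, 2621 and 2283 in Aged Bleo. All Young Bleo libraries but 1 were above all Young Sham libraries, and Young Bleo 17 was among the lowest. Sema5a rose by 0.97 on the log2 scale in young mice (SE 0.31, adjusted p = 0.017), in 17 of 23 settings, and the call was lost without Young Sham 23 or 25 or Young Bleo 18 or 19, where it was as low as 0.81. Within aged mice the value was -0.13 (adjusted p = 0.90). The difference of the responses was -1.10 (adjusted p = 0.46), and it was -1.38 (adjusted p = 0.034) without Young Bleo 17.

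Sema3a, a secreted semaphorin that repels through Nrp1 and A-type plexins, had 157, 143, 260, 97.1 and 405 normalized counts in Young Sham and 710, 338, 377 and 525 in Young Bleo. It had 118, 53.1 and 164 in Aged Sham and 404, 285, 195 and 121 in Aged Bleo. Young Sham 25 lay above Young Bleo 18 and 19. Sema3a rose by 1.20 on the log2 scale in young mice (SE 0.45, adjusted p = 0.046), in 11 of 23 settings, with adjusted p up to 0.21. The call was lost without Young Sham 21, 22, 23 or 24, without any Young Bleo library, or without Aged Bleo 2, with a log2 fold change of 0.96 to 1.58 over single libraries left out. In aged mice the estimate was of like size, 1.17, and did not pass (adjusted p = 0.17).

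Sema4c and Sema4d, membrane ligands of B-type plexins, were each called in 1 contrast. Sema4c had 1036, 1178, 996, 599 and 872 normalized counts in Young Sham, 1448, 1068, 898 and 1560 in Young Bleo, 396, 825 and 559 in Aged Sham, and 1323, 1022, 1005 and 947 in Aged Bleo. All Aged Bleo libraries were above all Aged Sham libraries, and the young groups overlapped. Sema4c rose by 0.85 on the log2 scale within aged mice (SE 0.28, adjusted p = 0.042), in 11 of 23 settings, with values of 0.63 to 1.16 over single libraries left out. That call was lost without Young Sham 21, 23 or 25, Aged Sham 13 or 15, or Aged Bleo 1 or 2. Of the 7 settings other than leaving out a library, 2 kept it (edgeR adjusted p = 0.12).

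Sema4d had 52.9, 79.9, 90.2, 30.4 and 30.3 normalized counts in Young Sham, 220, 85.3, 80.4 and 111 in Young Bleo, 138, 209 and 34.7 in Aged Sham, and 170, 67.1, 170 and 336 in Aged Bleo. Young Sham stayed at or under 90.2, while the highest library of each other group had 209 to 336. Sema4d rose by 1.72 on the log2 scale for Aged Bleo against Young Sham (SE 0.55, adjusted p = 0.021), in 16 of 23 settings, and was lost without Young Sham 24 or 25 or Aged Bleo 1 or 5, where it was as low as 1.27. Aged Bleo 5, the highest library, also had the highest sum of T and NK cell markers, 20.3 FPKM against 0.325 to 1.5 FPKM in the other 3 Aged Bleo libraries, and the part of that signal was not tested. The other abundant semaphorins were not called: Sema3f gave -0.66 (adjusted p = 0.072) and Sema7a -0.51 (adjusted p = 0.052) in young mice, and Sema3c gave 0.91 (adjusted p = 0.066) within aged mice. Sema7a passed without Young Sham 24, Young Bleo 20, or Aged Sham 13 or 14, and Sema3f without Young Sham 24, Young Bleo 20 (-0.91, adjusted p = 0.0049) or Aged Sham 13. Both passed with only the young groups in the fit (adjusted p = 0.034 and 0.028), and Sema7a also with a mean count filter (adjusted p = 0.048). Without Aged Sham 14, whose 29771 counts of Sema3c stood beside 9907 and 12420 in Aged Sham 13 and 15, Sema3c gave 1.55 (adjusted p = 2.2e-06) within aged mice, and it also passed without Young Sham 24 or Young Bleo 20 (0.91, adjusted p = 0.048 for both). In Aged Sham against Young Sham, leaving out Aged Sham 14 also made Sema3c pass as lower (-1.09, adjusted p = 0.0022, from -0.46, adjusted p = 0.52) and Sema4c (-0.97, adjusted p = 0.038).

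Among the plexin receptors in young mice, the most abundant one fell and 2 less abundant ones rose. Plxna1 (chr6:89316316-89362613), a receptor for secreted and class 6 semaphorins, had 18858, 19969, 17010, 19009 and 18333 normalized counts in Young Sham and 3724, 4195, 6153 and 11264 in Young Bleo. It had 14152, 12708 and 16643 in Aged Sham and 4199, 5773, 11615 and 10871 in Aged Bleo. Neither bleomycin group overlapped the sham group of its age. Plxna1 fell by 1.56 on the log2 scale in young mice (SE 0.32, adjusted p = 4.7e-05) and by 1.20 for Aged Bleo against Young Sham (SE 0.32, adjusted p = 0.0036), in all 23 other settings of each. Within aged mice the value was -0.84, with a 95% interval of -1.55 to -0.13 and an adjusted p of 0.16. Its share of the summed plexin FPKM was 61.1% to 67.8% in Young Sham and 53.5% to 63.2% in Aged Sham, against 24.0% to 42.4% in Young Bleo and 25.3% to 51.4% in Aged Bleo.

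Plxnb2 (chr15:89155549-89171120), a widely expressed receptor of class 4 semaphorins, had 1137, 1419, 1325, 923 and 942 normalized counts in Young Sham and 2048, 1750, 1577 and 2272 in Young Bleo. It had 1107, 708 and 806 in Aged Sham and 2503, 1963, 1372 and 1294 in Aged Bleo. Each bleomycin group lay above the sham group of its age without overlap. Plxnb2 rose by 0.74 on the log2 scale in young mice (SE 0.22, adjusted p = 0.011) in all 23 other settings, and by 1.03 within aged mice (SE 0.26, adjusted p = 0.0033) in 21 of 23. The aged call held in all 16 runs that left out a library and in 5 of the 7 remaining settings (edgeR adjusted p = 0.054). Against Young Sham, Aged Bleo gave 0.63 (SE 0.22, adjusted p = 0.044), and this call held in 10 of 23 settings. It was lost without Young Sham 21, 24 or 25, Young Bleo 17 or 18, Aged Sham 15, or Aged Bleo 1 or 2, and the value without Aged Bleo 1 was 0.43. Among the 7 settings other than leaving out a library, 2 kept it.

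Plxnc1 (chr10:94790866-94944578), the receptor of Sema7a, had 392, 347, 502, 340 and 323 normalized counts in Young Sham and 811, 624, 499 and 597 in Young Bleo. It had 352, 541 and 319 in Aged Sham and 959, 985, 490 and 835 in Aged Bleo. In each age 1 sham library lay just above the lowest bleomycin library. Plxnc1 rose by 0.74 on the log2 scale in young mice (SE 0.24, adjusted p = 0.020), by 1.01 within aged mice (SE 0.28, adjusted p = 0.0088) and by 1.11 for Aged Bleo against Young Sham (SE 0.24, adjusted p = 0.00023). The last held in all 23 other settings, the first in 15 and the second in 16. The young call was lost without Young Sham 22, 24 or 25 or Young Bleo 17 or 18, at a lowest value of 0.60, and the aged call without Aged Sham 13 or 15 or Aged Bleo 1, at a lowest value of 0.87. In the 7 settings other than leaving out a library, the young call held in 4 and the aged call in 3.

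Plxna2, a receptor of Sema6a, had 1619, 1770, 1349, 2051 and 1531 normalized counts in Young Sham, 1816, 1619, 1812 and 2355 in Young Bleo, 2408, 2928 and 2222 in Aged Sham, and 1822, 2517, 2116 and 3007 in Aged Bleo. All Aged Sham libraries were above all Young Sham libraries. Plxna2 rose by 0.51 on the log2 scale for Aged Bleo against Young Sham (SE 0.18, adjusted p = 0.042), close to the fold threshold, in 10 of 23 settings. It was lost without Young Sham 21, 22, 23 or 25, Young Bleo 17 or 19, or Aged Bleo 2 or 5, and was 0.37 without Aged Bleo 5. The call held in 2 of the 7 settings other than leaving out a library. Aged Sham against Young Sham gave a larger 0.60 that did not pass (adjusted p = 0.055) but did without Young Sham 24, Young Bleo 20, or Aged Bleo 1 or 5, and with only those groups in the fit (adjusted p = 0.032). Plxnd1 and Plxna4, the other abundant plexins, were called in no contrast, with a smallest adjusted p of 0.11 (Plxna4, -0.73 within aged mice). Plxna4 passed in young mice without Young Bleo 20 (-0.66, adjusted p = 0.036) and within aged mice without Aged Bleo 3 (-0.90, adjusted p = 0.033).

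Plxnb3 was scarce, with a mean of 16.1 normalized counts and 0 counts in 6 libraries, among them all 3 of Aged Sham. The mean of Young Sham was 24.0 and that of Aged Bleo 20.1. Against a floor of 3 counts over the 3 Aged Sham libraries, the Young Sham mean of Plxnb3 was 19.7-fold and the Aged Bleo mean 16.5-fold higher. These ratios leave out the spread between mice. The log2 fold change was -6.67 (95% interval -10.74 to -2.60, adjusted p = 0.040) for Aged Sham against Young Sham. For Aged Bleo against Aged Sham it was 6.41 (95% interval 2.22 to 10.60, adjusted p = 0.046). Young Sham 24 and Young Bleo 17 and 20 were also at 0, so the gene is at its limit of detection in libraries of every group but Aged Bleo. Over the other settings the adjusted p ranged up to 0.59 and 0.43. The first call was lost without Young Sham 21, 22 or 23, Young Bleo 18 or 19, or any Aged Sham library, and the second without any of these or without Aged Bleo 1, 2 or 5.

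Among the Eph receptors, Ephb1 had the largest log2 fold change of the genes called on a mean of at least 50 normalized counts. Ephb1 (chr9:101922128-102354693), a receptor of B-type ephrins, had 76.5, 60.1, 174, 2.34 and 58.7 normalized counts in Young Sham and 1023, 915, 901 and 476 in Young Bleo. It had 36.0, 105 and 71.3 in Aged Sham and 421, 319, 131 and 114 in Aged Bleo. All 4 Young Bleo libraries stood above every other library, and all 4 Aged Bleo libraries stood above all Aged Sham libraries. Ephb1 rose by 3.49 on the log2 scale in young mice (SE 0.63, adjusted p = 2.9e-06), in all 23 other settings, with values of 2.76 to 4.27. Within aged mice the value was 1.79, with a 95% interval of 0.38 to 3.21 and an adjusted p of 0.13 (0.015 without Young Sham 24). Against Young Sham, Aged Bleo gave 1.74 (adjusted p = 0.053), which passed without Young Sham 23 (2.31, adjusted p = 0.0045) or 24, Aged Sham 13, or Aged Bleo 3 or 5, and with a mean count filter (adjusted p = 0.048). Aged Bleo against Young Bleo gave -1.75 (SE 0.66, adjusted p = 0.21), which passed when only those groups entered the fit (-1.76, adjusted p = 0.0098) or without Young Sham 24 (adjusted p = 0.027), and the difference of the responses was -1.70 (adjusted p = 0.68).

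Epha2 (chr4:141301240-141329384), the most abundant Eph receptor and the partner of Efna1, had 1864, 1737, 1792, 2252 and 2260 normalized counts in Young Sham and 619, 1286, 722 and 1149 in Young Bleo. It had 1475, 1779 and 2409 in Aged Sham and 1530, 1448, 2284 and 1484 in Aged Bleo. The Young Bleo libraries lay below the libraries of all other groups. Epha2 fell by 1.07 on the log2 scale in young mice (SE 0.23, adjusted p = 0.00017), in all 23 other settings. Within aged mice the value was -0.16, with a 95% interval of -0.69 to 0.36. Aged Bleo against Young Bleo gave 0.84 (SE 0.25, adjusted p = 0.057), and it passed without Young Bleo 18 (1.02, adjusted p = 0.013), Young Bleo 20 (0.94, adjusted p = 0.022), Aged Sham 13 or Aged Sham 15 (both adjusted p = 0.043). The difference of the responses was 0.91 (adjusted p = 0.37). Epha4 was called in no contrast, with 0.76 within aged mice (adjusted p = 0.085), which passed without Young Sham 23 or without Aged Bleo 3 (0.89, adjusted p = 0.032).

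Beside Plxnb3, the ephrin Efna1 was the member called lower with age in uninjured mice. Efna1 had 13005, 12308, 9998, 12717 and 12357 normalized counts in Young Sham, 12109, 8711, 10194 and 9067 in Young Bleo, 8333, 6691 and 10164 in Aged Sham, and 9515, 8442, 7148 and 8081 in Aged Bleo. Aged Bleo lay below Young Sham without overlap, and Aged Sham 15 lay above Young Sham 23. Efna1 fell by 0.52 on the log2 scale for Aged Sham against Young Sham (SE 0.16, adjusted p = 0.037), in 10 of 23 settings. That call was lost without Young Sham 21, 22, 24 or 25, Young Bleo 19, Aged Sham 13 or 14, or Aged Bleo 5, with values of -0.69 to -0.38. Other than leaving out a library, 2 of 7 settings kept it. In Aged Bleo against Young Sham, Efna1 fell by 0.54 (SE 0.15, adjusted p = 0.0051) in 22 of 23 settings, and without Aged Bleo 3 the value was -0.48, under the fold threshold. Bleomycin within aged mice gave -0.02 (95% interval -0.35 to 0.31). In Aged Sham against Young Sham, 3 of 4 platelet markers and 3 of 4 mesothelial markers were called higher. So were 1 of 3 vein, 1 of 3 B cell and 1 of 5 fibroblast markers. Called lower were 2 of 5 general capillary, 1 of 5 pericyte and smooth muscle and 1 of 6 endothelial markers. The part of these markers in the age calls of Efna1 and Plxnb3 was not tested.

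Efnb1, a B-type ephrin whose reverse signal acts in the cell that carries it, had adjusted p of at least 0.66 in every contrast. Efna2 gave -1.09 in young mice (adjusted p = 0.079), which passed without Young Bleo 17 (-1.62, adjusted p = 0.0054). Robo4, the endothelial Robo, was lower in each group than in Young Sham without being called: its log2 fold change was -0.56 in Aged Sham (adjusted p = 0.054), -0.40 in Young Bleo (adjusted p = 0.084) and -0.49 in Aged Bleo (adjusted p = 0.033, under the fold threshold). The first passed without Young Bleo 19 or 20, Aged Sham 15 (-0.72, adjusted p = 0.011) or Aged Bleo 2, or with only those groups in the fit (adjusted p = 0.012), and the last without Aged Bleo 1 or 3. Slit3 had adjusted p of at least 0.55 in every contrast. Slit2 had 95.8 normalized counts in Young Sham 25 and 5.85 to 14.0 in the other 4 Young Sham libraries, and without that library its log2 fold change in Young Bleo was 2.16 (adjusted p = 0.020) in place of 0.70 (adjusted p = 0.65), and that in Aged Sham 3.36 (adjusted p = 0.001) in place of 1.90 (adjusted p = 0.28).

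**Figure D3:**
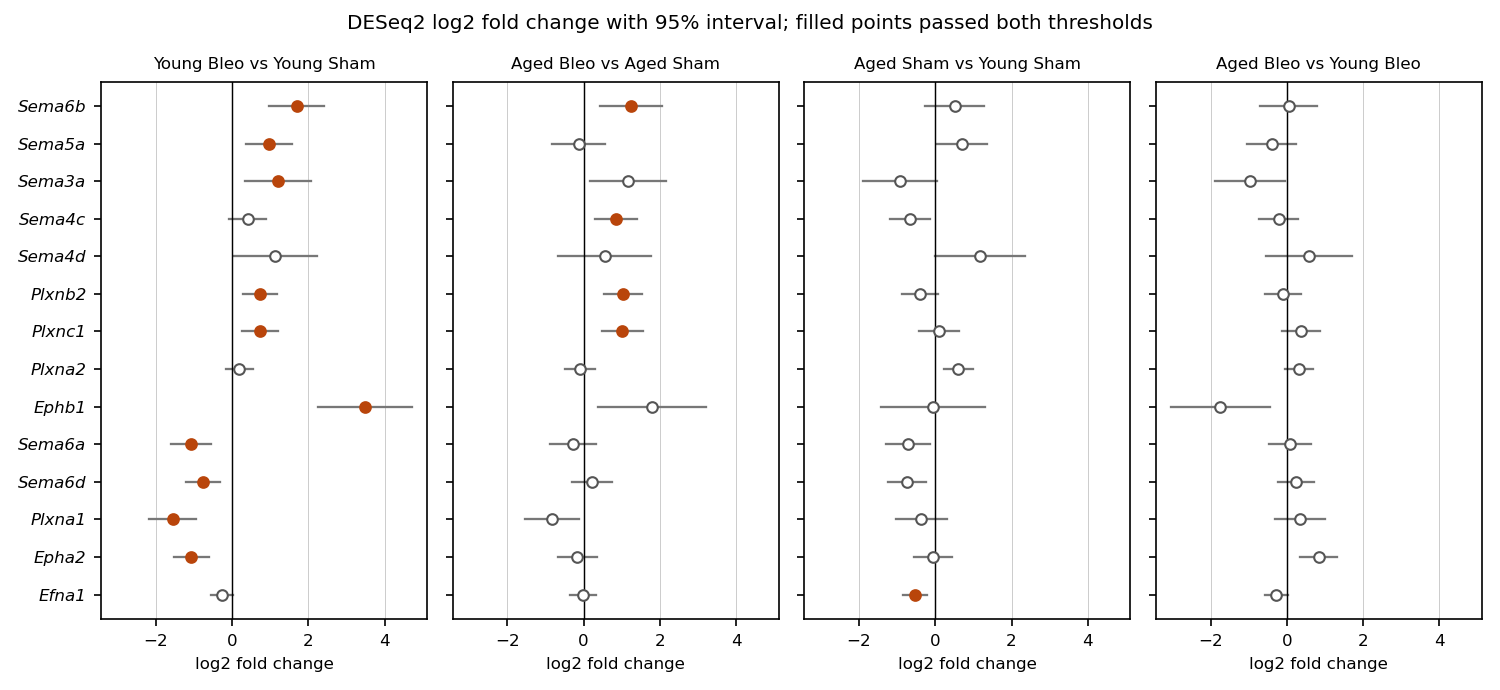
DESeq2 log2 fold change of the called genes other than Plxnb3, with 95% intervals, in 4 contrasts, where filled points passed both thresholds. Sema6b, Plxnb2 and Plxnc1 are filled in both bleomycin panels, Efna1 is the single filled point for age without injury, and no point is filled for Aged Bleo against Young Bleo.

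The levels of several of these genes ran beside the marker sums of other cell types. In Young Bleo and in Aged Bleo the order of the libraries by Plxna1 was the order by summed aerocyte markers: Young Bleo 20 was highest and Young Bleo 17 lowest in both, and Aged Bleo 3 was highest and Aged Bleo 1 lowest in both. Of the 5 aerocyte markers, 5 fell in young mice, 0 were called within aged mice and 2 fell for Aged Bleo against Young Sham. Sema6a was also highest in Young Bleo 20 and Aged Bleo 3. Epha2 did not follow that order in Young Bleo, where 1286 counts stood in library 18 with an aerocyte sum of 261 FPKM. Pericyte and smooth muscle markers also fell, 3 of 5 in young mice, 1 of 5 within aged mice and 5 of 5 for Aged Bleo against Young Sham. They summed to 27.6 to 68.3 FPKM in Young Sham and 16.8 to 29.5 FPKM in Aged Sham, against 10.8 to 30.8 FPKM in Young Bleo and 8.28 to 11.9 FPKM in Aged Bleo. The part of the aerocyte, pericyte and smooth muscle signal in these falls was not tested.

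Of the 6 macrophage markers measured, 3 rose in young mice, 3 within aged mice and 4 for Aged Bleo against Young Sham, none fell, and most of their sum was Lyz2. Ptprc, which encodes the CD45 that the sort excluded, reached 0.0305 FPKM in Young Sham, 0.122 FPKM in Young Bleo and 0.517 FPKM in Aged Bleo. Marco was at 0 in 3 Young Sham libraries and reached 3.21 FPKM in Aged Bleo, where no library was at 0. Sema6b, Plxnb2 and Plxnc1 were high in Aged Bleo 1, the library with the highest macrophage sum (1330 FPKM), and Plxnc1 was slightly higher in Aged Bleo 2 (762 FPKM). Aged Bleo 5 had the lowest macrophage sum of that group (188 FPKM) but more Sema6b and Plxnc1 counts than Aged Bleo 3 (338 FPKM). The Sema6b order in Aged Bleo was also that of the artery sums, 351, 281, 122 and 153 FPKM in libraries 1, 2, 3 and 5. In Young Bleo these orders differed. Plxnb2 was highest of the Young Bleo libraries in library 20, which had the lowest macrophage sum of that group, 146 FPKM. Ephb1 in Young Bleo was lowest in library 20, where the summed artery markers were also lowest, at 188 FPKM against 277 to 348 FPKM in the other 3. Of the 4 artery markers, 3 rose in young mice, within aged mice and for Aged Bleo against Young Sham, with sums of 122 to 351 FPKM in Aged Bleo, 75.4 to 137 FPKM in Young Sham and 62.4 to 101 FPKM in Aged Sham. Lymphatic markers summed to 677 to 1520 FPKM in Young Bleo and 316 to 606 FPKM in Aged Bleo, against 263 to 363 FPKM in Young Sham. Most of that sum was Ccl21a (643 to 1440 FPKM in Young Bleo), and 2 of the 5 lymphatic markers were called higher in young mice and 0 within aged mice. Of the 5 general capillary markers, 2 were called higher in young mice and 2 within aged mice, and 0 were called lower in either. They summed to 487 to 694 FPKM in Young Sham and 661 to 859 FPKM in Young Bleo. The sums were 347 to 532 FPKM in Aged Sham and 564 to 736 FPKM in Aged Bleo. Median FPKM of Aplnr, Gpihbp1 and Cd93 was higher in Young Bleo than in Young Sham, most of all for Gpihbp1. That of Kit and Plvap was lower. Within aged mice 3 of 4 platelet markers and 2 of 5 fibroblast markers fell. Of the 3 vein markers, 1 was called higher in young mice, 0 within aged mice and 2 for Aged Bleo against Young Sham. The part of these markers, and of the mesothelial ones, in the rises of Sema6b, Sema5a, Sema3a, Sema4c, Sema4d, Plxna2, Plxnb2, Plxnc1, Plxnb3 and Ephb1 was not tested.

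**Figure D4:**
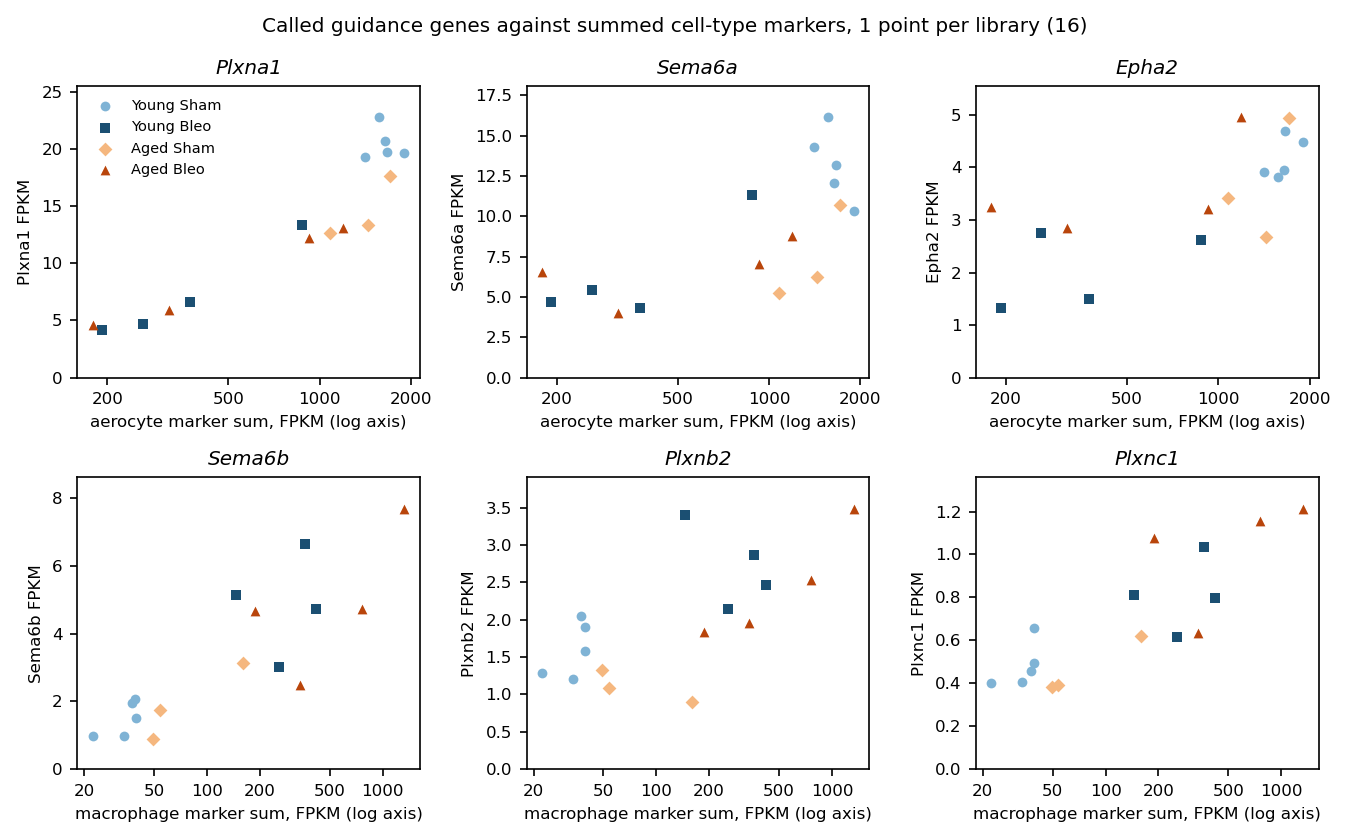
FPKM of 6 called genes against the summed FPKM of aerocyte markers (upper row) or macrophage markers (lower row, log axes), with 1 point for each of the 16 libraries. Plxna1 is lowest in the 5 injured libraries with aerocyte sums of 179 to 375 FPKM, and Sema6b reaches 3.14 FPKM at most in the sham libraries.

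Of the co-receptors and the 4 axis genes outside the set, 4 of 6 were called in young mice (3 higher and 1 lower), against 13.9% of all genes. Nrp1, the co-receptor shared by secreted semaphorins and VEGF, had 82693 to 104845 normalized counts in Young Sham and 29521 to 56488 in Young Bleo, and it fell by 1.33 on the log2 scale (adjusted p = 8.9e-08). Nrp2, the co-receptor of Sema3f, had 560 to 967 in Young Sham and 2759 to 3323 in Young Bleo, and it rose by 1.95 (adjusted p = 2.4e-10) in young mice and by 1.32 within aged mice (adjusted p = 0.0014). Nrp2 is also known from lymphatic and venous endothelium. The secreted semaphorins Sema3d and Sema3g rose by 2.35 and 0.64 in young mice (adjusted p = 1e-04 and 0.029), and Sema3g rose by 1.53 within aged mice (adjusted p = 2.9e-06) and fell by 1.00 for Aged Sham against Young Sham (adjusted p = 0.0031). With edgeR the young and the age call of Sema3g were lost (adjusted p = 0.059 and 0.056). Efnb2 and Ephb4, the arterial and venous pair, were called in no contrast.

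Genes that act downstream were counted from lists of known signalling partners. Of 17 semaphorin-plexin signalling genes tested, 3 rose and 3 fell in young mice and 3 rose and 2 fell within aged mice, where 7.57% and 6.35% of all genes rose and fell in young mice and 3.39% and 2.44% within aged mice. Crmp1, a mediator of the Sema3a signal, was scarce, with a mean of 25.4 normalized counts in Young Sham against 106 in Young Bleo, and of 2.59 in Aged Sham against 64.2 in Aged Bleo. It rose by 2.04 in young mice (adjusted p = 0.00062) and by 4.68 within aged mice (adjusted p = 4.6e-06), and fell by 3.36 in Aged Sham against Young Sham (adjusted p = 0.0021). Its relative Dpysl5 fell by 3.04 in young mice (adjusted p = 0.0036), and Gipc1, an adaptor that binds Nrp1, fell by 0.64 within aged mice (adjusted p = 3.3e-06). Rnd1, a small GTPase that binds plexins, rose by 0.71 (adjusted p = 0.00017) and 1.06 (adjusted p = 4.6e-06), and Fes, a tyrosine kinase downstream of Sema3a, by 0.93 (adjusted p = 0.00071) and 1.02 (adjusted p = 0.0032). Of 15 Eph-ephrin signalling genes tested, 2 rose and 2 fell in young mice and 2 rose and 1 fell within aged mice. Tiam1, a Rac exchange factor recruited by Eph receptors and ephrins, rose by 2.54 (adjusted p = 0.00054) and 3.26 (adjusted p = 0.00035), and Rgs3, which binds B-type ephrins, by 0.73 (adjusted p = 0.00082) and 1.20 (adjusted p = 4.6e-06). Vav3, an exchange factor that acts after Eph receptors, fell by 1.26 (adjusted p = 0.00098) and 1.04 (adjusted p = 0.049). Of 11 Slit-Robo signalling genes tested, 0 rose and 1 fell in young mice, namely the tyrosine kinase Abl1 by 0.57 (adjusted p = 0.00088), and 0 were called within aged mice. With edgeR the age call of Crmp1 was lost (adjusted p = 0.082), as were those within aged mice of Fes (adjusted p = 0.053), Tiam1 (adjusted p = 0.056) and Vav3 (adjusted p = 0.13). The median log2 fold change of the 3 lists in young mice was -0.19, 0.10 and 0.20, beside 0.01 over all genes.

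The spans of 24 of the 54 genes overlap another gene of the deposited table, and the strand setting of the counting is not stated. Epha1 (88.2 normalized counts) overlaps Zyx (15700), and Efna4 (34.6) overlaps the long noncoding gene 4731419I09Rik (4660), so both are uncertain. Efna3 (16.4) and Gm15998 (55.1), and Sema5b (6.21) and Gm5963 (10.7), overlap likewise and are uncertain too. Plxna1 overlaps the noncoding Gm26811, which had 519 normalized counts against 12200 for Plxna1. Robo4 and Robo3 lie 1645 bases apart on chromosome 9 and differed from 21.3 to 0.0177 FPKM. Efna1, Efna3 and Efna4 lie in a row on chromosome 3 with gaps of 32756 and 10424 bases and had 53.0, 0.0662 and 0.211 FPKM.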

How the data were processed

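Within the MAPRSeq pipeline, the authors mapped read pairs to mm10 with STAR 2.5.2b (version per the submitters' processing notes) and quantified genes with featureCounts of the Subread package. For every gene and library the deposited file gives the unnormalized count and the FPKM. The labels name a SMART-Seq and Nextera preparation and the methods a TruSeq poly(A) one. The annotation release and strand setting are not given in the sources used here.

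Counts were tested with DESeq2 1.42.0 (R 4.3.3; Wald test, default filters, unshrunken fold changes) in 1 model of all 16 libraries with group as the only term. Adjusted p-values are Benjamini-Hochberg over all genes tested. Levels between genes are compared in FPKM, libraries in DESeq2-normalized counts. The alternatives were edgeR 4.0.16 (quasi-likelihood), TMM size factors, a minimum of 10 mean normalized counts, no filters, limma 3.58.1 voom, limma-trend on log2(FPKM + 0.1) for genes of mean FPKM of at least 0.1, fits of only the groups compared, and leaving out each library. Every replicate pair differed by more than counting noise (chi-square per degree of freedom 32.8 to 428, 25 pairs). The genes, the signalling and marker lists and the tests were chosen with earlier results of these data known. Named genes are all called members and the 3 most abundant of each of 5 families. Values of every library are given for called members averaging 50 normalized counts or more and for the most abundant member of each family. Promoters come from RefSeq on GRCm38.p6. Results of 2 signalling genes are not reported here.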

Additional observations from a re-analysis of the deposited data

Results flagged for a closer look

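Among the 26 named genes, 78 groups of 4 or 5 libraries were examined for a library far from the others of its group, and 5 stood out (6.4%), where chance gives about 1 in 20. Epha2 had 2284 normalized counts in Aged Bleo 3, against 1448 to 1530 in the other 3 Aged Bleo libraries. Efna1 had 9998 in Young Sham 23, against 12308 to 13005 in the other 4, and that library was the shallowest of the 16. Sema6a had 9318 in Young Bleo 20, against 3918 to 4775 in the other 3 Young Bleo libraries. Robo4 had 12558 in Young Sham 22, against 10401 to 10929 in the other 4. Slit2 had 95.8 in Young Sham 25, against 5.85 to 14.0 in the other 4. Aged Bleo 3 and Young Bleo 20 were also the libraries with the highest aerocyte sums of their groups, 1190 and 877 FPKM, and the part of that in the Epha2 and Sema6a values was not tested.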

How the results depend on the processing

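Of 25 calls of a gene in a contrast, 10 held in every alternative run and none changed direction. Every call held with TMM size factors or with a mean count filter, while 13 held with edgeR, 13 with voom, 17 without filters, 19 when only the groups compared entered the fit, and 12 of 23 with limma-trend. Losses with another test or fit enter the settings counted for each gene and come beside the left-out libraries named there. For Aged Sham against Young Sham the count of 2 called genes became 0 with edgeR, without filters, with voom and with limma-trend, and 5 with only the groups compared, and it ranged from 0 to 5 when single libraries were left out. For Young Bleo against Young Sham, 10 became 6 with limma-trend and 13 with only the groups compared (7 to 13 over left-out libraries). For Aged Bleo against Aged Sham, 5 became 0 with edgeR and voom, 2 without filters and with only the groups compared, and 1 with limma-trend (1 to 7). Between Aged Bleo and Young Sham 8 became 5 with edgeR, voom and limma-trend (5 to 9). Between the bleomycin groups 0 became 1 with only the groups compared (0 to 1), and for the difference of the responses the range was 0 to 2. The causes were not tested. No paired analysis was possible because the title numbers do not repeat between groups. The libraries hold 20907113 to 71035301 counts, and 21 genes under 0.1 FPKM had too few counts for small differences to be seen.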
